A study of Mus musculus with 24 samples.

Results

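Huntingtin is a large scaffold protein encoded by Htt, and 4 of the genes that encode its classical binding partners are Hap1, Hip1, Hip1r and Zdhhc17. These 5 genes were taken by symbol from a deposited table of read counts for 54532 mouse genes, and all 5 were among the 19667 genes with enough reads to be tested. RNA had been measured by sequencing the striatum of a single hemisphere in 24 C57BL/6 mice, 1 library per animal. The 4 genotypes were wild type (WT), deletion of Tyrobp (TyrobpKO), heterozygosity for the Q175 allele (Q175), and heterozygosity for that allele together with deletion of Tyrobp (Q175_TyrobpKO). Each genotype had 6 animals, 3 male and 3 female, and the labels give no age. The Q175 allele is a knock-in at Htt itself, made to model Huntington's disease, so the 12 carriers have 1 expanded copy and 1 ordinary copy of the gene in every cell. Tyrobp encodes a signalling adaptor of microglial receptors, and its deletion is likewise present in all cells. Libraries are named by genotype and replicate, where replicates 1 to 3 were male and 4 to 6 female.

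Huntingtin binds vesicle, motor and transcription proteins, and an expanded glutamine tract at its start causes Huntington's disease, in which the projection neurons of the striatum are the most vulnerable cells. Hap1 protein links huntingtin to the dynein and kinesin motors that carry vesicles along axons. Hip1 and Hip1r are related adaptor proteins that bind clathrin and actin during endocytosis. Zdhhc17, also called HIP14, is a palmitoyltransferase that attaches a lipid to huntingtin and to synaptic proteins.

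The knock-in changes the first coding exon of Htt. The start of its mouse reference coding sequence is shown here because it holds the tract that the allele expands. Only the first 135 bases of the coding part of exon 1 of transcript Htt-201 are given, from chr5:34761907-34762041 on the plus strand of GRCm38. The exon itself ends at 34762109. The unbroken run of glutamine codons, 6 CAG and 1 CAA, is in capitals.
Htt exon 1, coding part: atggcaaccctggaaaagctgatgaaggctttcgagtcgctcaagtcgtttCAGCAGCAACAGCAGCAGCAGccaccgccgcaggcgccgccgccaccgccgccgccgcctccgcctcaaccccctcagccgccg
The ordinary mouse tract is thus 7 codons long, from codon 18 to codon 24. In the Q175 line this exon is replaced by human sequence with the expanded tract. The deposited counts are per gene and do not separate the 2 alleles. Exon 1 makes up 366 of the 13215 bases of Htt-201, and how many reads of the knocked-in exon were counted for Htt was not tested.

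In the deposited table Htt lies on chromosome 5 from 34761740 to 34912534 (plus strand), Hip1 on chromosome 5 from 135406531 to 135545120 (minus strand) and Hip1r on chromosome 5 from 123973628 to 124005558 (plus strand). Hap1 lies on chromosome 11 from 100347327 to 100356128 and Zdhhc17 on chromosome 10 from 110941780 to 111010140, both on the minus strand. Zdhhc17 overlaps no other gene of the table. The last 4523 bases of Htt overlap Msantd1 on the same strand, but Msantd1 had 2325 counts over all libraries against 130365 for Htt. Hip1r overlaps 918 bases of Vps37b on the opposite strand, which had 10596 counts against 73956 for Hip1r. Strand use in counting is not given in the sources used here, so reads in that overlap cannot be assigned with certainty. Of the 50-base windows of the longest coding transcript, 13.82% of those of Hip1r also occurred in transcripts of other genes, and 0 of those of the other 4 genes did.

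Library totals ran from 25.5 to 34.6 M counts (M, megacounts). Levels are TMM-scaled counts per library size (CPM). A gene counts as called where edgeR's quasi-likelihood test gave it a Benjamini-Hochberg adjusted p below 0.05, with adjustment over all 19667 genes. Tyrobp itself averaged 7.88 ± 1.15 CPM in WT and 8.68 ± 2.10 in Q175 (SD, n = 6), against 0.341 ± 0.0926 in TyrobpKO and 0.260 ± 0.0423 in Q175_TyrobpKO, which matches the labels. The summed level of 12 markers of striatal projection neurons was 7502 to 11788 CPM in WT and 5084 to 6856 in Q175, and 11 of the 12 fell in that comparison. In TyrobpKO the sum was 7026 to 11529 CPM and in Q175_TyrobpKO 4386 to 6943, and 5 of the 12 fell. None of the 12 was at 0 in any group. The sum of 8 cortical neuron markers varied from 51.1 to 965 CPM over the 24 libraries. The sum of 8 choroid plexus markers passed 400 CPM in 4 carriers (Q175 3 and 5, Q175_TyrobpKO 4 and 6), with 4152 CPM in Q175 3. In the animal names of the labels, all Q175 animals share a prefix that only WT 3 has besides, so Q175 against WT is also largely a contrast of prefixes, while Q175_TyrobpKO and TyrobpKO share theirs. No animal with Tyrobp has that shared prefix, so in both comparisons of Tyrobp genotypes, and in the interaction, deletion of Tyrobp and prefix cannot be told apart.

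Per kilobase of gene length as deposited, the WT level was 25.9 ± 3.88 CPM per kb for Hap1 and 24.9 ± 1.43 for Zdhhc17 (SD, n = 6). Hip1r followed at 13.8 ± 1.19, Htt at 9.23 ± 0.354 and Hip1 at 6.72 ± 0.363 CPM per kb. Hap1 and Zdhhc17 differed by less than their spread, and each later gap in the order was larger than either SD. Divided by the length of the longest coding transcript, a choice added after the data were seen, Zdhhc17 came first at 38.7 CPM per kb, then Hap1 at 29.4, Htt at 17.1, Hip1r at 15.1 and Hip1 at 11.1. The ranks of Hap1 and Zdhhc17, and of Htt and Hip1r, therefore depend on which length is used. All later values are CPM or log2 fold changes within 1 gene.

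**Figure D1:**
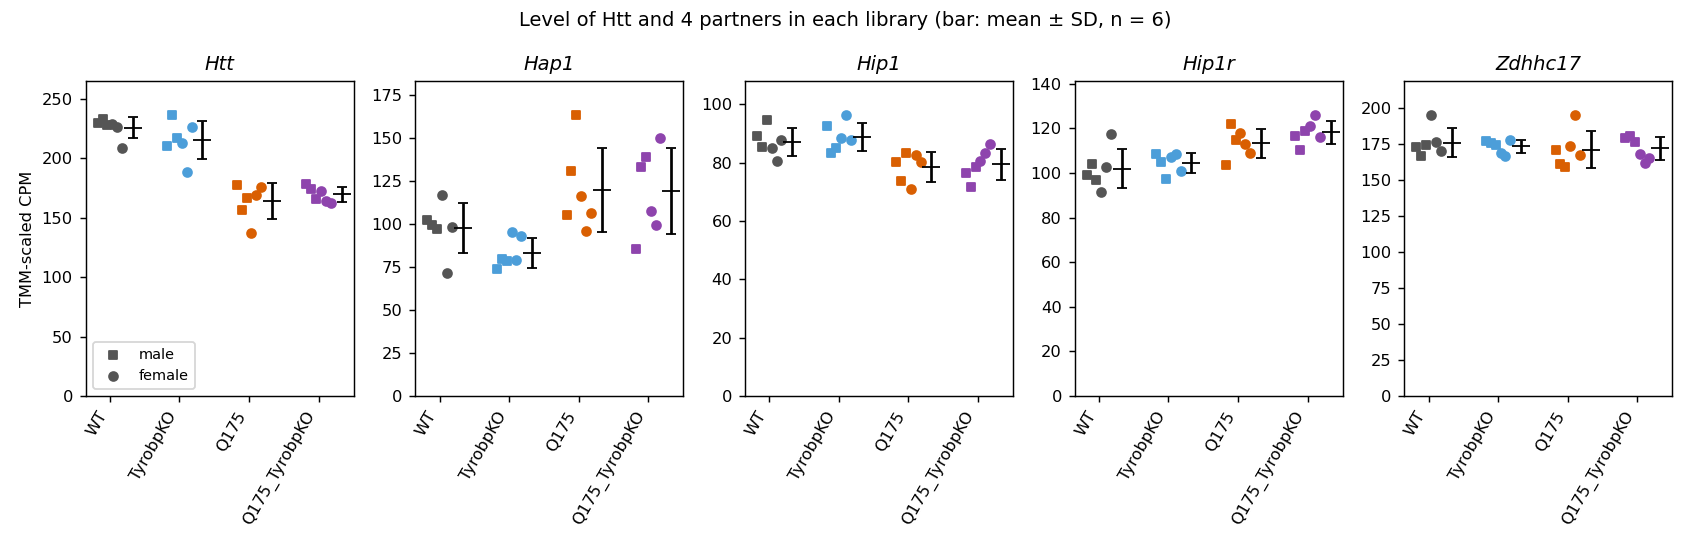
Level of each gene in every library (TMM-scaled CPM, vertical axis from 0) by genotype, with squares for males, circles for females and bars for mean ± SD (n = 6). Every carrier of the Q175 allele lies below every non-carrier for Htt, whereas the groups overlap for Hap1, Hip1r, Hip1 and Zdhhc17 when carriers and non-carriers are pooled.

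Htt RNA was lower in both groups that carry the allele, and Htt was the only gene of the 5 called in Q175 against WT. In WT the lowest, median and highest libraries had 209, 228 and 233 CPM. In Q175 they had 137, 168 and 177 CPM, so all 6 lay below all WT libraries. The fall in Q175 against WT was log2 -0.46 ± 0.057 (SE, edgeR adjusted p = 3.02e-06), or -27.4% with a 95% interval of -33.1% to -21.3%. Of all genes tested, 9.63% were called in that comparison, 5.47% lower and 4.15% higher, and 2.39% had all 6 Q175 libraries below all 6 of WT. The decrease in Htt was called in males alone and in females alone. WT 3, which shares the prefix of the Q175 animals, had 228 CPM of Htt.

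A decrease was also present without Tyrobp. TyrobpKO libraries had 188 CPM of Htt at the lowest, 215 at the median and 236 at the highest. Those of Q175_TyrobpKO had 162.5, 169 and 178 CPM, again with no overlap. The difference was log2 -0.34 ± 0.057 (SE, edgeR adjusted p = 0.000315), or -21.1%. In this comparison 5.86% of genes were called, 3.08% lower and 2.78% higher, and 2.27% had every carrier library below every TyrobpKO library. In females alone the value was -0.33 with an adjusted p of 0.113.

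Over both backgrounds the 12 carriers had between 137 and 178 CPM of Htt and the 12 non-carriers between 188 and 236. Complete separation of this kind, in either direction, was found for 1.14% of tested genes (0.722% with carriers lower and 0.422% with carriers higher). Of the 5 genes only Htt was separated. The fitted mean difference was log2 -0.40 ± 0.040 (SE, edgeR adjusted p = 3.18e-08), a decrease of 24.4% with a 95% interval of -28.5% to -19.9%. Averaged over the backgrounds 18.0% of genes were called, 9.17% lower and 8.85% higher. In bulk tissue, fewer cells of a type and less RNA per cell cannot be told apart. The summed projection neuron markers moved the same way as Htt. So did the sum of 7 astrocyte markers, which was 4327 to 4802 CPM in WT, 4526 to 4922 in TyrobpKO, 3522 to 4202 in Q175 and 3637 to 4064 in Q175_TyrobpKO. Both sums thus separated all carriers from all non-carriers. Of the 7 astrocyte markers 2 fell and 1 rose in Q175 against WT, 3 fell and 0 rose without Tyrobp, and none was at 0 in any group. The mean sum of 8 oligodendrocyte markers was 10821 CPM in WT and 9556 in Q175, with 0 called. It was 12087 CPM in TyrobpKO and 9502 in Q175_TyrobpKO, with 2 of the 8 called lower. For 9 interneuron markers the means were 398 and 363 CPM, then 398 and 361, with 0 called in either comparison. Libraries of these last 2 sums overlapped. The part of any of these cell types in the Htt decrease was not tested.

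Deletion of Tyrobp was not followed by a called difference in Htt. TyrobpKO against WT gave log2 -0.069 ± 0.057 (SE, edgeR adjusted p = 0.810) and Q175_TyrobpKO against Q175 gave 0.050 ± 0.057 (adjusted p = 0.898). The difference between the Q175 effects with and without Tyrobp, the interaction, was 0.12 ± 0.080 (adjusted p = 0.999) with a 95% interval of -0.045 to 0.28. That interval holds both no difference and a clearly smaller Q175 effect in the absence of Tyrobp. The deletion itself was called for 0.117% of genes in TyrobpKO against WT and 0.158% in Q175_TyrobpKO against Q175. The interaction was called for 0 genes (0%) by edgeR, for 2 by DESeq2 and for 0 by limma-voom, with 707 genes at an unadjusted p under 0.05 in edgeR.

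Hap1, the motor-linking partner, was the most variable of the 5 genes and was higher in carriers. WT libraries had 71.8 CPM at the lowest, 98.7 at the median and 117 at the highest. Q175 libraries had 95.8, 111 and 163.4 CPM, overlapping WT. Hap1 did not pass the test in Q175 against WT, at log2 0.29 ± 0.14 (SE, edgeR adjusted p = 0.223). TyrobpKO libraries ran from 73.8 to 95.2 CPM around a median of 79.3, and those of Q175_TyrobpKO from 85.7 to 149.8 around 120.4. Of the 6 Q175_TyrobpKO libraries, 5 lay above all TyrobpKO libraries. That rise was called, at log2 0.52 ± 0.14 (SE, edgeR adjusted p = 0.0327), or 43.1% with a 95% interval of 16.6% to 75.5%.

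Averaged over both backgrounds Hap1 rose by log2 0.40 ± 0.10 (SE, edgeR adjusted p = 0.00658), or 32.4%. In females alone this was not called (0.29, adjusted p = 0.264). Between the 2 backgrounds the effects were not shown to differ (interaction 0.22 ± 0.20, adjusted p = 0.999, 95% interval -0.19 to 0.64). TyrobpKO against WT was -0.23 ± 0.14 (adjusted p = 0.762). The call in Q175_TyrobpKO against TyrobpKO was not kept when any of 7 libraries was left out (TyrobpKO 1, 2, 3 or 5, Q175_TyrobpKO 2, 3 or 6), with adjusted p up to 0.0927 and values of 0.43 to 0.60. It was also lost with no filter (0.51, edgeR adjusted p = 0.0827), in males alone (0.62, 0.206) and in females alone (0.42, 0.377). Without the 4 libraries rich in choroid plexus markers the difference was 0.46 (adjusted p = 0.0927) there and 0.34 (adjusted p = 0.0231) averaged over both backgrounds.

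Hap1 was high in libraries with few cortical markers. The 4 libraries with a cortical marker sum under 100 CPM were Q175_TyrobpKO 6, Q175 3, WT 4 and Q175 2, with sums of 51.1, 64.5, 73.2 and 73.8 CPM. Their Hap1 levels were 149.8, 163.4, 117 and 131 CPM, and WT 4 was the highest of its genotype. The lowest sum in TyrobpKO was 444 CPM, and the highest Hap1 level there was 95.2 CPM. With the logarithm of the cortical sum as a covariate, added after the data were seen, the Q175 effect on Hap1 was 0.20 ± 0.081 in the presence of Tyrobp (SE, edgeR adjusted p = 0.0993). It was 0.35 ± 0.084 without Tyrobp (adjusted p = 0.00726) and 0.28 ± 0.060 averaged over both (adjusted p = 0.00103). The Hap1 rise was thus smaller with the covariate and still called in the last 2 of these. Summed markers of 10 genes of septum, pallidum and thalamus ran from 61.3 to 102.0 CPM. The sum of 8 hypothalamic genes, 4 of them tested, ran from 4.49 to 8.45 CPM and was highest in Q175 3. The former sum was highest in Q175_TyrobpKO 2 (102.0), Q175 2 (93.7) and Q175 3 (84.6), with Hap1 at 133, 131 and 163.4 CPM. WT 5 came next at 83.0 with Hap1 at 71.8 CPM, while Q175_TyrobpKO 3 had 61.4 with Hap1 at 139 CPM. Whether either sum bears on the Hap1 rise was not tested.

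**Figure D2:**
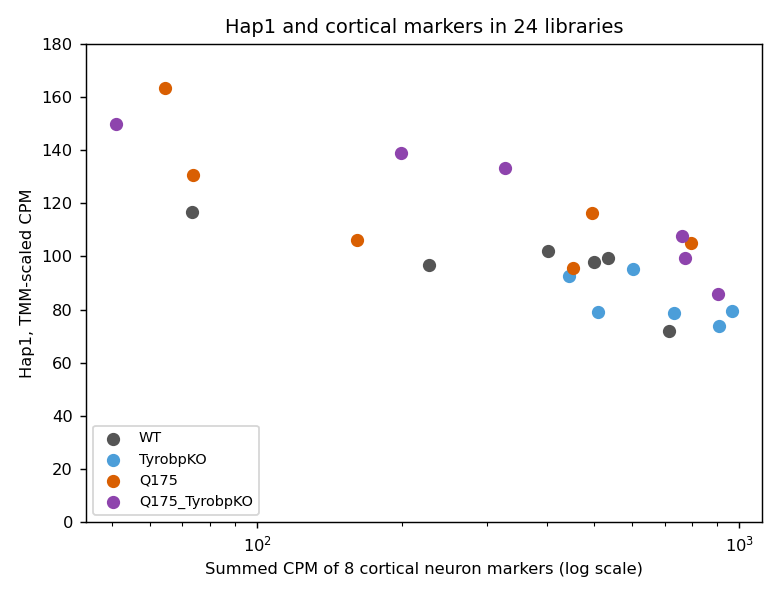
Hap1 level (TMM-scaled CPM) against the summed level of 8 cortical neuron markers (CPM, log scale), 1 point per library, coloured by genotype. Hap1 is highest in libraries with few cortical markers, up to 163.4 CPM in Q175 3, and TyrobpKO libraries lie at the right with 95.2 CPM or less.

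Hip1 and Hip1r, the paired endocytic adaptors, differed in opposite directions between carriers and non-carriers, each by a small amount. Hip1 had 80.6, 86.6 and 94.5 CPM in the lowest, median and highest WT libraries and 70.9, 80.2 and 83.4 in Q175. It had 83.3, 88.2 and 96.5 CPM in TyrobpKO and 71.7, 79.5 and 86.4 in Q175_TyrobpKO. The groups overlapped in both pairs, and 8 of 12 carriers lay below all non-carriers. Neither single comparison was called, with log2 -0.15 ± 0.055 (SE, edgeR adjusted p = 0.0833) in Q175 against WT and -0.16 ± 0.055 (adjusted p = 0.0771) without Tyrobp. Averaged over the backgrounds Hip1 fell by 0.16 ± 0.039 on the log2 scale (SE, edgeR adjusted p = 0.00470), or -10.3% with a 95% interval of -15.1% to -5.22%.

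Hip1r had 91.5, 101 and 117 CPM in the lowest, median and highest WT libraries and 103, 114 and 122 in Q175. In TyrobpKO these were 97.2, 106 and 109 CPM and in Q175_TyrobpKO 110.2, 118 and 126. All 6 Q175_TyrobpKO libraries lay above all 6 of TyrobpKO, as was the case for 2.22% of tested genes. Hip1r rose there by log2 0.18 ± 0.054 (SE, edgeR adjusted p = 0.0485), just inside the threshold, and the call was not kept when any of 13 libraries was left out (adjusted p up to 0.112). Those were TyrobpKO 2 to 6, Q175 3, 5 and 6, and Q175_TyrobpKO 1 and 3 to 6, and the fold change stayed at 0.16 to 0.20 in all 24 such fits. Q175 against WT gave 0.15 ± 0.054 (adjusted p = 0.0755), which was called without WT 6 or Q175 1. Averaged over both backgrounds Hip1r rose by 0.17 ± 0.038 (SE, edgeR adjusted p = 0.00276), or 12.1% with a 95% interval of 6.18% to 18.4%.

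Scaling bears on this pair, because both changes are small. With total counts in place of TMM factors, the median of all genes in Q175 against WT moved from 0.0073 to 0.065. Hip1r was then called in that comparison (0.21, adjusted p = 0.0158). The mean Hip1 effect was then -0.10 (adjusted p = 0.0626) and no longer called. The direction of each was the same under both scalings. In a single sex, the averaged Hip1 effect in females (-0.12, adjusted p = 0.262) and the averaged Hip1r effect in males (0.17, adjusted p = 0.0751) and females (0.16, adjusted p = 0.144) were not called.

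Zdhhc17, the palmitoyltransferase, showed no called difference in any comparison. Its lowest, median and highest libraries had 166.6, 173.4 and 195.2 CPM in WT and 158.9, 169.0 and 195.0 in Q175. They had 166.8, 174.7 and 177.6 CPM in TyrobpKO and 161.8, 172.2 and 180.7 in Q175_TyrobpKO, so all 4 groups overlapped. Q175 against WT gave log2 -0.041 ± 0.052 (SE, edgeR adjusted p = 0.709) and Q175_TyrobpKO against TyrobpKO -0.013 ± 0.052 (adjusted p = 0.934). Averaged over the backgrounds the 95% interval ran from -0.10 to 0.048, or -6.79% to 3.40%. With total counts in place of TMM factors the averaged value was 0.030, so not even a direction can be given for this gene.

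Counted together, 1 of the 5 genes was called in Q175 against WT (9.63% of all genes) and 3 in Q175_TyrobpKO against TyrobpKO (Htt lower, Hap1 and Hip1r higher, 5.86% of all genes). The calls of Hap1 and Hip1r were both lost when TyrobpKO 2, 3 or 5, or Q175_TyrobpKO 3 or 6, was left out. Averaged over both backgrounds 4 were called (Htt and Hip1 lower, Hap1 and Hip1r higher, 18.0% of all genes). With Tyrobp deleted against not deleted, 0 of 5 were called by edgeR in either Q175 background, with adjusted p from 0.762 to 0.997 and no unadjusted p below 0.123. None was called in the interaction by edgeR, where the lowest unadjusted p was 0.146. Females against males differed in none of the 5 (adjusted p = 0.999 for each, with 0.0814% of all genes called), and the Q175 effect was not shown to differ between the sexes for any (adjusted p = 0.998 for each, 0% of all genes called). The Htt effect differed between the sexes by 0.014 with a 95% interval of -0.16 to 0.19. That of Hap1 differed by -0.24 with an interval of -0.65 to 0.18, so a sizeable difference remains possible there.

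**Figure D3:**
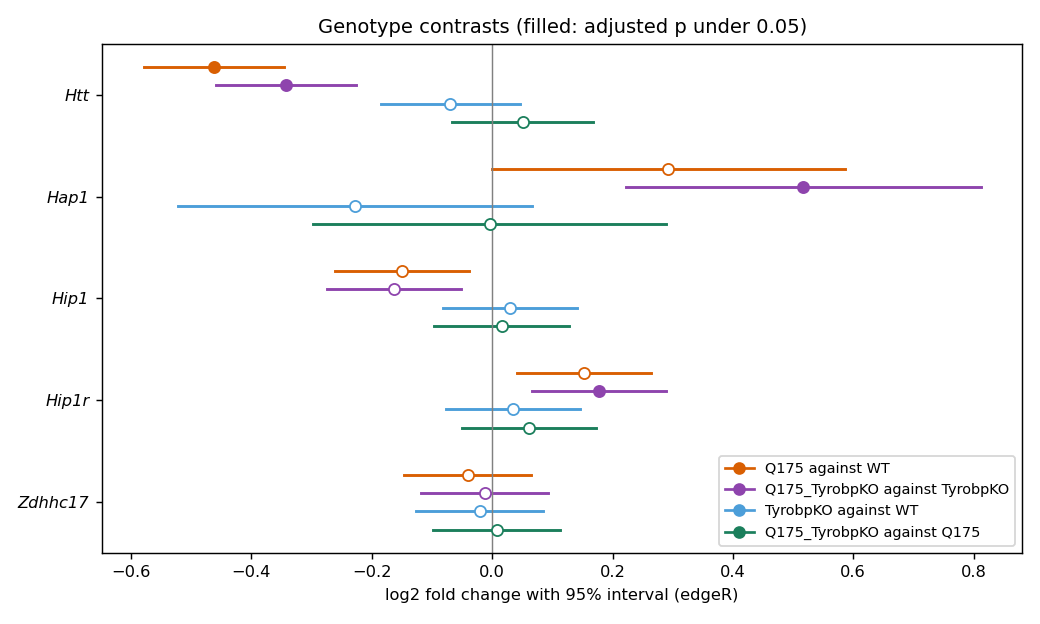
Log2 fold change (horizontal axis) with 95% interval of each gene in the 4 genotype comparisons, where a filled point has an edgeR adjusted p under 0.05. Htt is called in both Q175 comparisons (-0.46 and -0.34), Hap1 and Hip1r only in that between the groups without Tyrobp (0.52 and 0.18), and no gene in either comparison of Tyrobp genotypes.

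The pattern over libraries that was most like that of Htt belonged to Prkcb, a protein kinase C, with Pearson r = 0.94 of log2 CPM over 24 libraries. Atp2a2, the calcium pump of the endoplasmic reticulum, had r = 0.90 and Sipa1l1, a postsynaptic regulator of Rap signalling, also 0.90. These genes share the split between carriers and non-carriers with Htt. After subtraction of the genotype means and a sex term, r was 0.65, 0.59 and 0.33. The later values within genotypes likewise have the sex term removed. Prkcb averaged 862 CPM in WT and 590.5 in Q175.

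For Hap1 the closest genes were Gaa, the lysosomal acid glucosidase, with r = 0.95, Baiap3, which takes part in dense-core vesicle traffic, with 0.94, and CT486005.1 with 0.93. Within genotypes these were 0.92, 0.95 and 0.88, so the likeness there was as close for Baiap3 and slightly less close for Gaa and CT486005.1. Baiap3 averaged 13.8 CPM in WT and 23.0 in Q175, beside 10.1 in TyrobpKO and 24.2 in Q175_TyrobpKO. For Zdhhc17 the closest was Hace1, a ubiquitin ligase, with r = 0.85 over all libraries and 0.94 within genotypes, then Lztfl1 (0.84) and Dnajc10 (0.83).

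Hip1 was most like Zfp532 (0.81), Gpr146 (0.81) and D7Ertd443e (0.80), and Hip1r most like Map7d1 (0.86), Grhpr (0.85) and P4htm (0.85). Among the 5 genes themselves the largest coefficient was that of Htt with Hip1r, at -0.78 over all libraries and -0.52 within genotypes. Htt with Hip1 had 0.62 over all libraries and 0.042 within genotypes. Libraries of the same animals give both values of each pair, so shared composition and scaling enter every coefficient.

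Other partners of huntingtin, a list of 22 genes that were all tested, held called genes at about the share of all genes in Q175 against WT. There 0 of the 22 rose and 2 fell, beside 9.63% of all genes called, with a list median of -0.014 beside 0.0073 for all genes. Itpr1, the IP3 receptor through which calcium leaves the endoplasmic reticulum, fell by 0.53 on the log2 scale (SE 0.067, edgeR adjusted p = 4.05e-06). It averaged 1541 ± 152 CPM in WT and 1065 ± 49.0 in Q175 (SD, n = 6). Cbs, which makes cystathionine, fell by 0.32 (adjusted p = 0.00793). Rest, the repressor of neuronal genes that huntingtin holds in the cytoplasm, had the next smallest p and was not called (0.33, adjusted p = 0.0842).

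The same 2 genes were called, in the same direction, in Q175_TyrobpKO against TyrobpKO, with -0.37 for Itpr1 (edgeR adjusted p = 0.000952) and -0.28 for Cbs (0.0326), where 5.86% of all genes were called. The Cbs call without Tyrobp was not kept when any of 7 libraries was left out (TyrobpKO 1, 3, 4 and 5, Q175_TyrobpKO 2, 3 and 5), with adjusted p up to 0.0973. Averaged over both backgrounds 2 of the 22 rose and 3 fell, beside 18.0% of all genes called. Those added were Rest at 0.32 (0.00888), Crebbp, a histone acetyltransferase, at 0.15 (0.0270), and Sh3gl3, an endophilin, at -0.14 (0.0426). Pacsin1, the list member with the smallest p in Q175_TyrobpKO against Q175, had 0.21 there (adjusted p = 0.726).

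The 17 genes of Hap1 partners and microtubule transport, of which 16 were tested and Hgs was not, had 1 higher and 2 lower in Q175 against WT around a median of 0.067, beside 9.63% of all genes called. Ahi1, which forms a complex with Hap1, rose by 0.36 (SE 0.092, edgeR adjusted p = 0.0123). Kif5c, a neuronal kinesin heavy chain, fell by 0.34 (adjusted p = 0.00118) and Kalrn, a guanine nucleotide exchange factor of dendritic spines, by 0.49 (adjusted p = 0.00818). Without Tyrobp, Ahi1 (0.31, adjusted p = 0.0407) and Kif5c (-0.33, adjusted p = 0.00260) were called again, beside 5.86% of all genes. That call of Ahi1 was not kept when any of 8 libraries was left out (TyrobpKO 1 to 5, Q175_TyrobpKO 2, 3 and 6), with adjusted p up to 0.115. Kalrn had -0.32 (adjusted p = 0.124) there and 0.27 (adjusted p = 0.818) in Q175_TyrobpKO against Q175. Averaged over both backgrounds 3 of the 16 rose and 3 fell, beside 18.0% of all genes called, among them the dynactin subunits Dctn1 (0.09, adjusted p = 0.0382) and Dctn3 (-0.18, adjusted p = 0.0242) in opposite directions.

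Clathrin endocytosis is the setting in which Hip1 and Hip1r act. None of its 27 listed genes was called in either comparison of Q175 carriers with their controls by edgeR, DESeq2 or limma-voom. By edgeR 2 had an unadjusted p under 0.05 in each, while 9.63% of all genes were called in Q175 against WT and 5.86% without Tyrobp. With the cortical covariate 3 were called in Q175 against WT, beside 2642 of all 19667 genes. With total counts in place of TMM factors 2 were called without Tyrobp, beside 1736 of 19667. The smallest p-values in Q175 against WT belonged to Tln2, a talin (-0.17, adjusted p = 0.117), Ap2b1, a subunit of the clathrin adaptor AP2 (-0.11, adjusted p = 0.162), and Cttn, cortactin (0.11, adjusted p = 0.224). The list median was 0.012, and its values ran from -0.17 to 0.15. Only Cttn was called in the average over both backgrounds (0.12, adjusted p = 0.0294), beside 18.0% of all genes. In Q175_TyrobpKO against Q175 the smallest p was that of Gak, an uncoating kinase (0.07, adjusted p = 0.832).

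Of 23 other DHHC palmitoyltransferases, the family of Zdhhc17, 20 were tested (Zdhhc11, Zdhhc19 and Zdhhc25 were not). In Q175 against WT 0 rose and 1 fell, beside 9.63% of all genes called. The 1 was Zdhhc18 at -0.23 (edgeR adjusted p = 0.0419), while Zdhhc14 had -0.26 (0.0836) and Zdhhc3 0.14 (0.133). The Zdhhc18 call was not kept when any of 12 libraries was left out (WT 1 to 4, TyrobpKO 1, 3, 4 and 6, Q175 1, 3, 5 and 6), with adjusted p up to 0.141. Without Tyrobp none was called by edgeR (2 had an unadjusted p under 0.05), beside 5.86% of all genes, and Zdhhc18 had -0.08 (adjusted p = 0.645). In the average over both backgrounds 1 of the 20 rose, Zdhhc2 at 0.15 (adjusted p = 0.0195), and 1 fell, Zdhhc18 at -0.16 (adjusted p = 0.0367). Of all genes 18.0% were called in that average. In Q175_TyrobpKO against Q175 Zdhhc14 had the smallest p (0.22, adjusted p = 0.818).

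Among 5 substrates of Zdhhc17, Dlg4, which encodes the postsynaptic scaffold PSD-95, fell by 0.31 in Q175 against WT (SE 0.060, edgeR adjusted p = 0.00111). Its level was 835 ± 51.0 CPM in WT and 676 ± 42.5 in Q175 (SD, n = 6). The presynaptic genes Snap25 (-0.17, adjusted p = 0.587) and Syt1 (-0.11, adjusted p = 0.717) were not called. Dlg4 was the 1 called gene of the 5 there, beside 9.63% of all genes. Without Tyrobp 0 of the 5 were called by edgeR, beside 5.86% of all genes, and 1 had an unadjusted p under 0.05. Dlg4 had -0.17 in that comparison (adjusted p = 0.0923). Dlg4 was the only gene of the 5 called in the average over both backgrounds (-0.24, adjusted p = 0.000163), beside 18.0% of all genes. Gad2 had the smallest p in Q175_TyrobpKO against Q175 (-0.13, adjusted p = 0.885).

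Of 7 other genes whose glutamine tracts expand in human disease, 0 rose and 1 fell in Q175 against WT, beside 9.63% of all genes called. Atxn1, a transcriptional corepressor, fell by 0.30 (SE 0.070, edgeR adjusted p = 0.00596). Without Tyrobp none of the 7 was called by edgeR, DESeq2 or limma-voom, where edgeR called 5.86% of all genes. By edgeR 1 had an unadjusted p under 0.05, and Atxn1 had -0.21 (adjusted p = 0.0838). Leaving out TyrobpKO 1 gave Atxn1 -0.24 there (adjusted p = 0.0485). In Q175 against WT Atxn7 had 0.10 (adjusted p = 0.284) and Cacna1a, a calcium channel subunit, had -0.11 (adjusted p = 0.402). Cacna1a had 0.15 (adjusted p = 0.827) in Q175_TyrobpKO against Q175. Atxn1 also fell in the average over both backgrounds, by 0.25 (adjusted p = 0.000540), as the only gene called among the 7, beside 18.0% of all genes. In no list was a gene called for deletion of Tyrobp in either background or for the interaction.

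**Figure D4:**
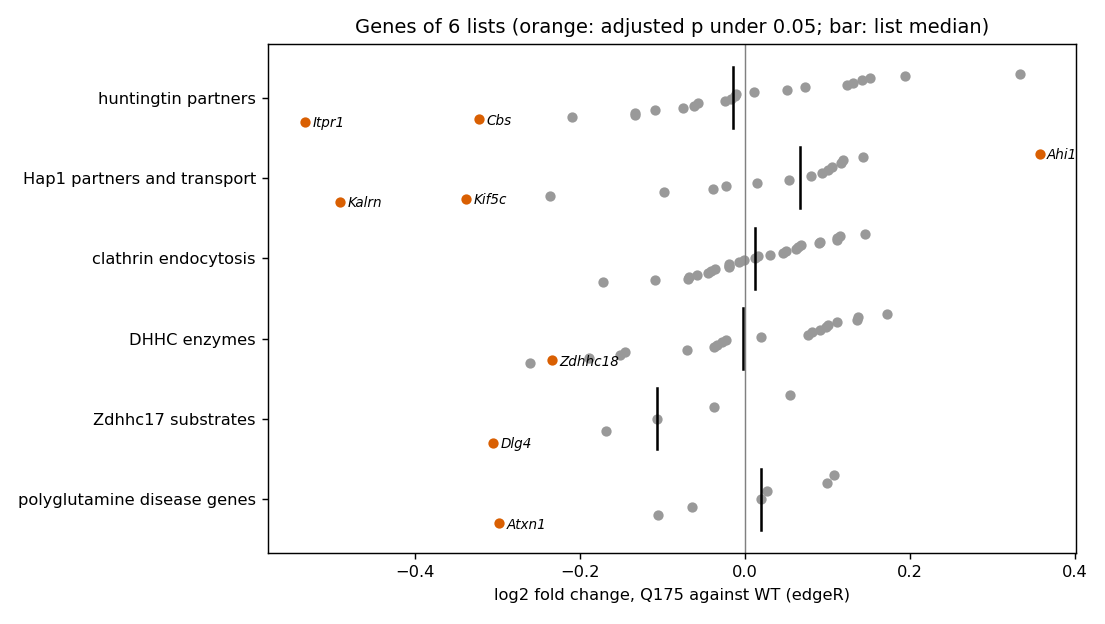
Log2 fold change in Q175 against WT (horizontal axis) of the tested genes of 6 lists, 1 point per gene, with the list median as a bar and called genes (edgeR adjusted p under 0.05) in orange and named. Called genes range from none for clathrin endocytosis to Kalrn, Kif5c and Ahi1 among the Hap1 partners, beside 9.63% of all genes tested.

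Because the allele sits in Htt, the genes around it were examined as well. Within 1 Mb of Htt the table holds 65 genes, of which 40 were tested and 29 of those are protein-coding. In Q175 against WT 9 of the 40 (22.5%) were called, 4 higher and 5 lower, against 9.63% of all genes. In Q175_TyrobpKO against TyrobpKO 2 (5%) were called, both higher, against 5.86% of all genes. None was called by edgeR for deletion of Tyrobp, with 4 at an unadjusted p under 0.05 against WT and 2 against Q175, or for the interaction, with 3. The share was thus above that of all genes in the first comparison and near it in the second. In Q175 against WT, the prefixes of the animal names follow the allele in all animals but WT 3. A difference that the prefixes mark could be told apart from the allele only through that library, which was not tested.

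Grk4, a G protein-coupled receptor kinase that ends 6.435 kb before the start of Htt and is its nearest tested neighbour upstream, was the only neighbour called in both. Among animals with Tyrobp it averaged 3.22 ± 0.508 CPM in WT and 5.60 ± 0.583 in Q175 (SD, n = 6). Among those without, the means were 3.43 ± 0.756 CPM in TyrobpKO and 5.69 ± 0.966 in Q175_TyrobpKO. Its libraries ran from 2.73 to 3.92 CPM in WT and from 4.66 to 6.16 in Q175, and the share of all genes so separated was not counted. Those of TyrobpKO (2.28 to 4.51 CPM) and Q175_TyrobpKO (4.36 to 7.23 CPM) overlapped. Grk4 rose by log2 0.80 ± 0.15 in Q175 against WT (SE, edgeR adjusted p = 0.000626) and by 0.73 ± 0.15 without Tyrobp (adjusted p = 0.00271).

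Nop14, a ribosome biogenesis factor next to Grk4, rose without Tyrobp (0.30 ± 0.055, edgeR adjusted p = 0.00118) and had 0.14 (adjusted p = 0.0998) in Q175 against WT. Mfsd10, a membrane transporter beyond it, rose in Q175 against WT (0.36, adjusted p = 0.0173) and had 0.32 (adjusted p = 0.0556) without Tyrobp. On the other side, Msantd1, which overlaps the end of Htt, was lower without passing the test (-0.31, adjusted p = 0.304, and -0.30, adjusted p = 0.403). Dok7 and Acox3, further downstream, rose in Q175 against WT by 0.43 (adjusted p = 0.00235) and 0.35 (adjusted p = 0.00473). Neither was called without Tyrobp. Leaving out each library in turn gave 0.26 to 0.33 there for Dok7, called in 3 of the 24 fits, and 0.12 to 0.20 for Acox3, called in 0.

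The 5 neighbours that fell in Q175 against WT were Zfyve28 (-0.48, edgeR adjusted p = 6.37e-05), the transcript Gm15513 inside it (-0.67, 0.00387), Cfap99 (-0.62, 0.0458), Add1, a cytoskeletal adducin (-0.17, 0.0202), and the adrenergic receptor gene Adra2c (-0.39, 0.0405). None of these 5 was called without Tyrobp, where they had -0.24, -0.25, -0.031, -0.087 and -0.13. Zfyve28 lay near the threshold there (adjusted p = 0.0523) and was called when WT 5, TyrobpKO 3, Q175 4 or Q175_TyrobpKO 5 was left out (adjusted p down to 0.0281). The calls of Cfap99, Adra2c and Add1 in Q175 against WT were not kept when any of 17, 12 and 4 libraries respectively was left out. Averaged over both backgrounds 10 of the 40 (25%) were called, 6 higher and 4 lower, against 18.0% of all genes. Letm1 (0.11, adjusted p = 0.0298) and Nop14 were added there, and Cfap99 was not among them.

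**Figure D5:**
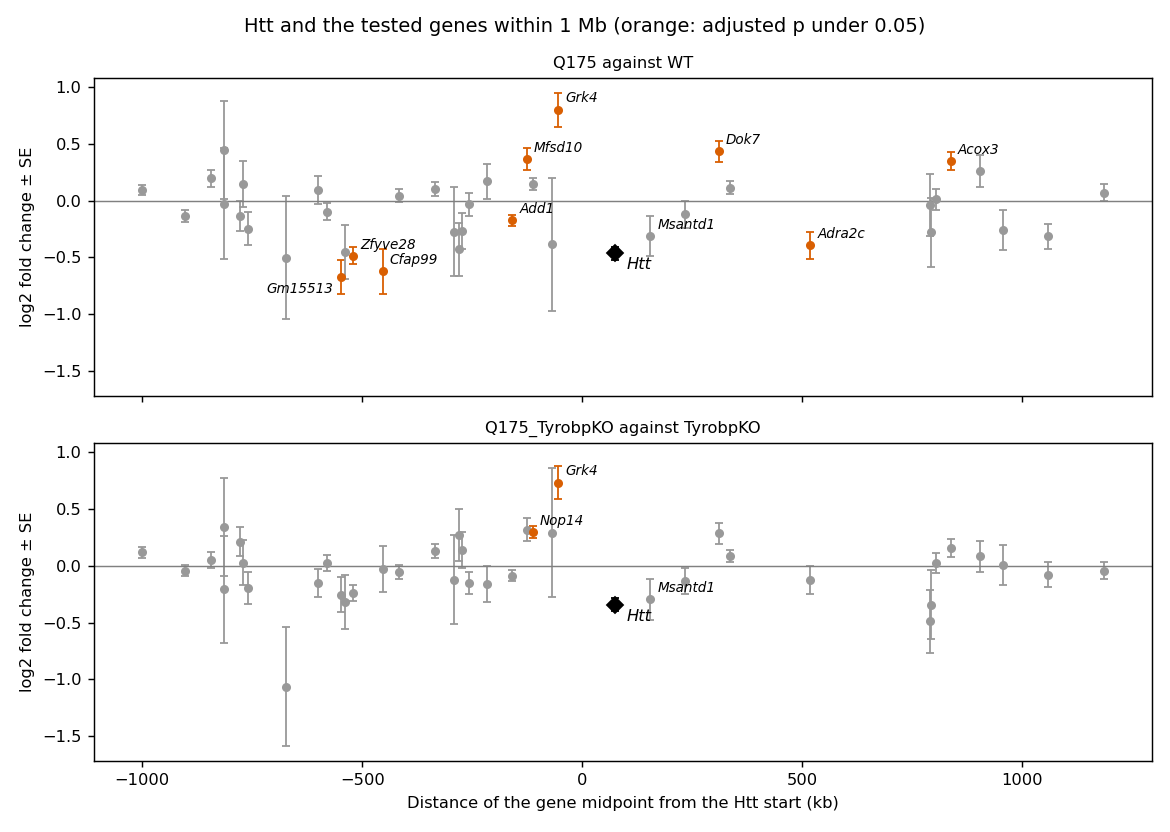
Log2 fold change ± SE (vertical axis) of Htt (black diamond) and the 40 tested genes within 1 Mb, by distance of the gene midpoint from the Htt start (kb), in the 2 Q175 comparisons, with called genes in orange. Grk4, just before Htt, is high in both panels (0.80 and 0.73), and most other called genes are called in the upper panel alone.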

How the data were processed

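The deposited values are raw counts of reads, whole numbers without normalization, for each gene in 24 libraries, and each gene's position and length stand beside them. The submitters' processing notes name STAR, featureCounts, DESeq2 and the build GRCh38, without versions. All 54532 identifiers are mouse ones, and 54409 matched GENCODE M21 (GRCm38), 98.33% of them with the same start and end, so positions are those of GRCm38 counted from 1.

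Genotype and sex came from the labels, which give no replicate numbers, so numbers only name libraries. Nothing beyond animal names shows separate litters, and p-values measure the spread between these animals.

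Counts were tested with edgeR 4.0.16 (R 4.3.3): TMM, filterByExpr on genotype, a robust quasi-likelihood fit on genotype means plus a sex term, and Benjamini-Hochberg adjustment over the 19667 genes left. Interaction with sex used a mean per genotype and sex. Standard errors derive from the F statistic. The script was tested on simulated data. CPM values are TMM-scaled.

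The genes and lists were chosen with earlier results of these data known. Lists were compiled from general knowledge, and 2 of their genes are not reported here and were left out of counts and medians. From each list, Q175 against WT gave 3 names by smallest p and Q175_TyrobpKO against Q175 gave 1, with neighbours of Htt within 1 Mb that were called or nearest, and for each of the 5 genes the 3 with the highest correlation. List members called only in the average over backgrounds were named after their values were seen. Alternatives were DESeq2 1.42.0 (size factors, Wald test), limma-voom (limma 3.58.1), total counts, no filter, at least 1 CPM in 6 libraries, no sex term, only the 12 libraries compared, each sex alone and each library left out. After the data were seen, a cortical marker covariate, omission of the 4 libraries with over 400 CPM of choroid plexus markers, and transcript length were added. The sequence comes from the GENCODE M21 transcripts.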

Additional observations from a re-analysis of the deposited data

Results flagged for a closer look

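In 20 groups (5 genes in 4 genotypes), 2 had a library whose gap to the nearest of the others exceeded Dixon's 95% critical value for 6 libraries, and chance flags about 1 in 20 groups. Htt in WT 6 was 208.6 CPM, while the other 5 WT libraries had 226 to 233 CPM. WT 6 still lay above every carrier of the allele. Zdhhc17 in WT 4 was 195.2 CPM, while the other 5 had 167 to 177 CPM. Without WT 4 the difference of Zdhhc17 in TyrobpKO against WT changed sign, from -0.021 to 0.0090.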

How the results depend on the processing

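No paired analysis was possible because the labels give the animals no replicate numbers that the genotypes share. Of 1385 values of the 5 genes under alternatives, 1279 kept their direction and side of the threshold, 34 were no longer called, 8 became called and 64 changed sign. Htt was called in both Q175 comparisons and in their mean in all these fits except females alone without Tyrobp (-0.33). The 5 genes had at least 1995 counts in every library, while Grk4 had 3023 over all 24 libraries. The effect of depth was not tested.

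With total counts in place of TMM, Hip1r became called in Q175 against WT (0.21), the mean effect on Hip1 was not called (-0.10), and Zdhhc17 changed sign in Q175 against WT (0.015), without Tyrobp (0.045) and in the mean (0.030), as did Cfap99 without Tyrobp (0.028). Among huntingtin partners 4 genes were then called in Q175 against WT, beside 2742 of all 19667 genes. Higher genes then made up 69.1% instead of 43.2% of calls in Q175 against WT, 73.6% instead of 47.4% without Tyrobp (1736 calls) and 73.1% instead of 49.1% in the mean. The cortical covariate made Hip1r called in Q175 against WT (0.16) and Hip1 without Tyrobp (-0.18), turned Hap1 in Q175_TyrobpKO against Q175 (0.082) and gave 2 interaction calls. Hip1 without Tyrobp was also called by DESeq2 (-0.16) and in the 12 libraries alone (-0.16), where Hap1 in Q175_TyrobpKO against Q175 was 0.00082. DESeq2 gave 2 interaction calls and 52 in Q175_TyrobpKO against Q175. With no filter, neither Hap1 (0.51) nor Hip1r (0.17) was called without Tyrobp.

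Without the 4 libraries rich in choroid plexus markers, Hap1 (0.46) and Hip1r (0.19) were not called without Tyrobp. There Zdhhc17 was 0.0090, and its sex difference was -0.0015. The sex differences in Q175 effect were -0.015 for Htt and 0.028 for Hip1r. Calls then numbered 1186 in Q175 against WT, 493 without Tyrobp and 14 in Q175_TyrobpKO against Q175.

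Males alone gave 759, 104, 65, 11 and 1242 calls in Q175 against WT, Q175_TyrobpKO against TyrobpKO, TyrobpKO against WT, Q175_TyrobpKO against Q175 and the mean effect, and females alone 187, 290, 8, 11 and 1195. In males alone Hap1 (0.62) and Hip1r (0.16) without Tyrobp and the mean effect on Hip1r (0.17) were not called. Signs changed in males for Zdhhc17 (0.027), Zdhhc18 (0.022) and Adra2c (0.055) without Tyrobp, for Hip1 (-0.046) and Zdhhc17 (0.036) in TyrobpKO against WT, for Hip1 in Q175_TyrobpKO against Q175 (-0.065) and for the Hip1r interaction (-0.022). In females alone Hap1 (0.42) and Hip1r (0.20) without Tyrobp and the mean effects on Hap1 (0.29), Hip1 (-0.12) and Hip1r (0.16) were not called. Signs changed in females for Hap1 (0.16) and Zdhhc17 (-0.12) in Q175_TyrobpKO against Q175 and for the Zdhhc17 interaction (-0.037). The cause of these changes was not tested. Fewer libraries entered the fits of a single sex.

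Leaving out each library in turn gave, in Q175 against WT, -0.17 to -0.12 for Hip1 (called without WT 5) and 0.12 to 0.20 for Hip1r. Without Tyrobp it gave 0.43 to 0.60 for Hap1, 0.16 to 0.20 for Hip1r, -0.030 to 0.0063 for Zdhhc17 and -0.16 to 0.068 for Cfap99. In TyrobpKO against WT it gave -0.0018 to 0.053 for Hip1, -0.0013 to 0.071 for Hip1r and -0.042 to 0.0090 for Zdhhc17. In Q175_TyrobpKO against Q175 it gave -0.090 to 0.10 for Hap1, -0.016 to 0.044 for Hip1 and -0.013 to 0.049 for Zdhhc17. Interactions ran from -0.045 to 0.016 for Hip1, -0.012 to 0.059 for Hip1r and -0.0043 to 0.069 for Zdhhc17, with 0 to 2 calls. Sex differences ran from -0.092 to 0.0035 for Hap1 and -0.0076 to 0.023 for Zdhhc17, and those in Q175 effect from -0.028 to 0.067 for Htt, -0.053 to 0.032 for Hip1r and -0.049 to 0.0095 for Zdhhc17. Counts of called genes ran from 0 to 3 for DHHC enzymes in Q175 against WT, from 1 to 2 for Hap1 partners, from 1 to 2 for huntingtin partners and from 0 to 1 for polyglutamine genes without Tyrobp.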
